A study of Homo sapiens with 12 samples.

Results

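The genes described here are 50 expressed genes of U2OS cells whose RNA stood at no more than 25% of its DMSO level after TH10785 and PNKP1i were given together. A gene was taken when it had a symbol, a mean normalized count of at least 60 over the 3 DMSO libraries, and a mean over the 3 combination libraries of at most 0.25 of that. Of 11478 genes with a symbol and that DMSO level, 63 (0.549%) met both conditions. Leaving out the collagen, keratin and histone genes and 10 further named genes left the 50. The combination and DMSO libraries therefore chose the genes, and their values are given below as a description, with no test.

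U2OS is a line derived from a human osteosarcoma. RNA was sequenced in 12 libraries, 3 in each of 4 groups: both compounds at 10 µM each, 10 µM TH10785, 10 µM PNKP1i, and the solvent DMSO, all after 24 h. TH10785 activates OGG1, the glycosylase that cuts oxidised guanine out of DNA at the start of base excision repair. The labels name PNKP1i as the second compound and give no structure for it, and the series record spells the first TH10587. All 4 groups are 1 cell line, with no engineered allele named in the labels, and nothing in them says whether replicates are separate cultures. Every p-value thus reflects the spread between libraries of the same group, which could be technical. In the main fit, that of all 4 groups, this spread was estimated over all 12 libraries together.

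Depth ran from 16225339 to 21546369 counts per library, and no replicate pair held identical counts. Among mesenchymal markers, SPARC, COL1A1, VIM and RUNX2 were present while COL1A2, SP7 and TWIST1 were near or at 0, so not all osteoblast markers were found. The T cell marker CD3E was at 0. In these bulk libraries, fewer cells of a type and less RNA per cell cannot be told apart.

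A single library bears on the whole set. Combination replicate 1 was the lowest of the 3 combination libraries in 50 of 50 genes, though the share over all genes was not counted. The median gene stood at 10.4% of its DMSO mean in that library, against 25.5% and 24.6% in combination replicates 2 and 3. Without replicate 1, 23 of the 50 genes still met the rule: ALPP, CABP7, EDN2, GALNT15, GPER1, GRB7, HR, IGFBP5, LGI3, LRRC15, NGFR, NPFFR1, NPPB, NTN3, NTRK3, PDLIM1, PEG13, PLEKHB1, PRIMA1, SOX18, STRA6, TGFBI and WNT11. The 50 genes then ran from 9.63% (GALNT15) to 35.4% (LUARIS) of the DMSO mean, with a median of 25.2%. In each of the 3 combination libraries, 50 of 50 genes lay below all 9 other libraries. The rule chose the genes for a low combination mean, which favours such a separation. Its share over all genes was not counted, and nothing is read from it.

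As background, the amount of a messenger RNA in a cell is set by how fast it is transcribed and how fast it decays, and short-lived transcripts follow changes in transcription sooner than stable ones. Many products of these genes carry signals between cells. Neurotrophin receptors, WNT ligands, insulin-like growth factor binding proteins and ephrin receptors act at the cell surface or outside it, and mesenchymal cells and tumours that arise from them use several of these pathways.

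By the main textbook role of the product, the 50 genes fell into 14 receptors or other signalling proteins, 9 adhesion, matrix or cytoskeleton proteins, 7 secreted factors, 7 transcription factors or DNA-binding regulators, and 5 channels, transporters or trafficking proteins. The remaining 8 were 2 in RNA or protein handling, 2 noncoding RNAs, 1 metabolic enzyme and 3 of other or unknown role. By location, 18 products act at the cell surface, 10 are secreted, 18 lie inside the cell, 2 were not assigned and 2 genes are noncoding. In the annotation, 48 of the 50 are protein coding. Surface and secreted products thus made up 28 of the 50, a description only, since their share among all expressed genes was not counted.

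The promoters of 5 of the genes are shown, the 4 that held the letters TGANTCA and PDLIM1, which held the letters GGGCGG 8 times. They are the 250 bases before the RefSeq start on GRCh38.p14, written 5′ to 3′ along the gene, and capitals mark every match to the motifs searched on either strand. GALNT15 lies at chr3:16174430-16174679, plus strand. LRRC15 lies at chr3:194369744-194369993, minus strand. PLEKHB1 lies at chr11:73646331-73646580, plus strand, SLC2A12 at chr6:134052625-134052874, minus strand, and PDLIM1 at chr10:95291004-95291253, minus strand.
GALNT15: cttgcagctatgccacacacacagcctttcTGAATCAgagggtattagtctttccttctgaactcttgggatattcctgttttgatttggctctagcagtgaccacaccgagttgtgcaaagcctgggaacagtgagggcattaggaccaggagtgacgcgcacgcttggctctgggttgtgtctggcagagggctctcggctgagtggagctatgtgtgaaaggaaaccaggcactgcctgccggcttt
LRRC15: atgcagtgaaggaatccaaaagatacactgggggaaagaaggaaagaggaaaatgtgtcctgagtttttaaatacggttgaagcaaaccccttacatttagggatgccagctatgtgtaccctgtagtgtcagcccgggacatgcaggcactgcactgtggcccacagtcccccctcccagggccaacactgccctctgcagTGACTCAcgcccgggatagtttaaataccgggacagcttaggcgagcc
PLEKHB1: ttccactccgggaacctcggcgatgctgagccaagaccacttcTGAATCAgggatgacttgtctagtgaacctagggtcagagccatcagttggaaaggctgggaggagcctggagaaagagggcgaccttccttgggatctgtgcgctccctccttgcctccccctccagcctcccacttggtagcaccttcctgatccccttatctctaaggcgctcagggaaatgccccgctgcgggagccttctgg
SLC2A12: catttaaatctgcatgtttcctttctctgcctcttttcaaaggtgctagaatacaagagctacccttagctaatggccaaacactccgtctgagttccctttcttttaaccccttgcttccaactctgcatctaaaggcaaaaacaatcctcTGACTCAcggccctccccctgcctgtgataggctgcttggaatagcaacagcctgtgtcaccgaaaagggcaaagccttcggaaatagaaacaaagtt
PDLIM1: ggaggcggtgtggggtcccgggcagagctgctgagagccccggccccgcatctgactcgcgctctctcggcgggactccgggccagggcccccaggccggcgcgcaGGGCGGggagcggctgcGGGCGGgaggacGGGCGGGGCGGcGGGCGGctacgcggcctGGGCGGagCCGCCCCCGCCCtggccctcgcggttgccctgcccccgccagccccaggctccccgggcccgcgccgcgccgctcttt

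RefSeq promoter entries matched 35 of the 50 genes. The 6 motifs searched, on both strands and with overlaps allowed, were the TATA form TATAAA, the box CCAAT, the GC box core GGGCGG, the E-box form CACGTG, the AP-1-like form TGANTCA and the cyclic AMP response form TGACGTCA. TGANTCA was in 4 of 35 (11.4%), against 3.58% of 9127 promoters of genes with a DMSO mean of at least 60 and 6.57% of all 35116 promoters. LRRC15 and SLC2A12 hold it as TGACTCA, the form AP-1 factors bind, and GALNT15 and PLEKHB1 as TGAATCA. Its first base lay 220 bases before the start in GALNT15, 48 in LRRC15, 207 in PLEKHB1 and 98 in SLC2A12. GGGCGG was in 18 of 35 (51.4%), against 69.7% of promoters of genes at that DMSO level. CCAAT was in 8 (22.9%, against 35.1%), TATAAA in 2 (5.71%, against 4.67%), CACGTG in 2 (5.71%, against 9.20%) and TGACGTCA in 0 (against 3.02%). A match is a run of letters in the window and not a measured binding site. The median GC content of the windows was 67.2%, against 65.6% at that DMSO level.

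With both compounds, the 50 genes stood at 7.92% (GALNT15) to 24.996% (TMEM255A) of their DMSO means, with a median of 20.2%. On the log2 scale of the edgeR fit, the combination minus DMSO had a median of -2.28 over the 50, against 0.04 over all 17290 genes tested. All 50 passed the filter on low counts and all 50 were called lower, where 19.7% of all tested genes were, but the rule used this contrast and nothing is read from that. DMSO means ran from 62.3 normalized counts (SCNN1A) to 7339 (IGFBP5), with a median of 327, and these counts are not divided by gene length. Low counts limit precision in some genes: 11 of the 50 had under 10 raw counts in a combination library. The median coefficient of variation over 3 libraries was 48.3% with both, 20.4% with TH10785, 15.6% with PNKP1i and 12.8% with DMSO. The 48.3% includes the lower values of combination replicate 1, found in genes with high counts as well. It is thus not a measure of low counts alone. Around the threshold, the last 3 genes inside it were LUARIS at 0.248, TUBB4A at 0.249 and TMEM255A at 0.24996 of DMSO, and the first 3 outside were CRISPLD2 at 0.2504, KLRK1-AS1 at 0.2507 and RCAN2 at 0.2535. At the level of 60, SCNN1A (62.3) and PRIMA1 (62.4) were just inside, and MYOCD (59.3) and LOC339685 (53.6) just outside.

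**Figure D1:**
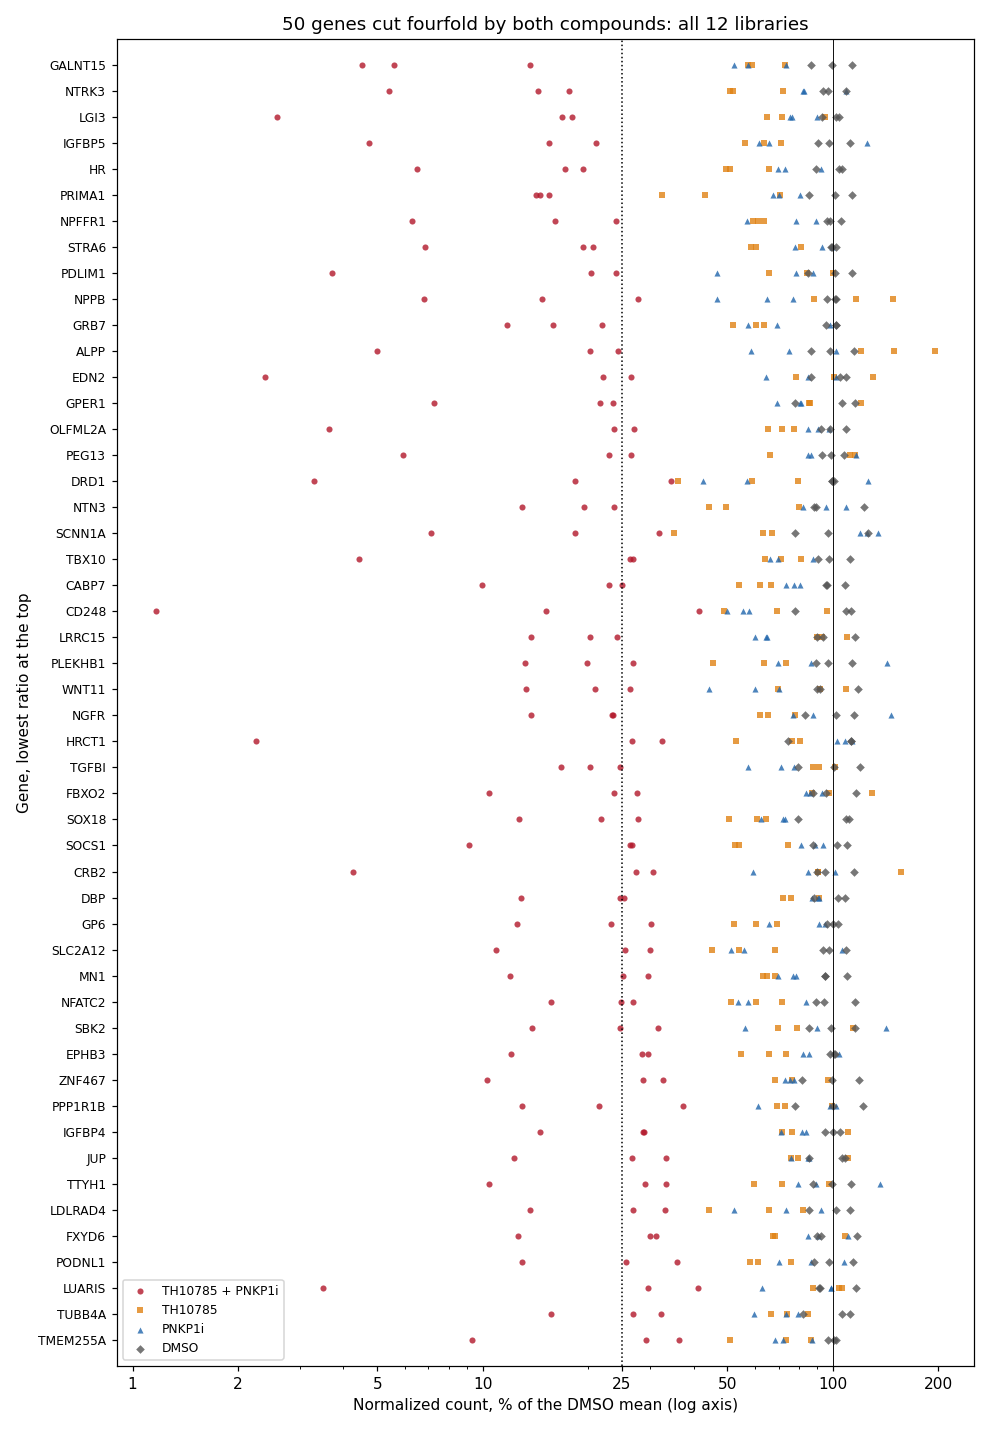
Normalized count of each of the 50 genes in the 12 libraries, as a percentage of that gene's DMSO mean on a log axis, with genes ordered from the lowest ratio (GALNT15, top) to the highest (TMEM255A, bottom). Red circles are the combination, orange squares TH10785, blue triangles PNKP1i and grey diamonds DMSO, and the dotted line marks 25%. The red points lie left of all others in each of the 50 genes, and the points of the single compounds lie beside or somewhat left of the DMSO points.

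Receptors and the proteins that pass on their signals made up the biggest class. NTRK3, the receptor tyrosine kinase for neurotrophin-3, had 6.21, 20.2 and 16.5 normalized counts in the combination libraries, 59.8, 58.6 and 82.7 in the TH10785 libraries, 95.2, 126 and 94.2 in the PNKP1i libraries and 111, 108 and 126 in the DMSO libraries. NPFFR1, a G protein-coupled receptor for RF-amide peptides, had 14.2, 54.6 and 36.4 in the combination libraries, 134, 144 and 138 in the TH10785 libraries, 129, 202 and 177 in the PNKP1i libraries and 217, 239.7 and 222 in the DMSO libraries. STRA6, the membrane receptor through which cells take up retinol, had 63.0, 179 and 190.1 in the combination libraries, 538, 554 and 746 in the TH10785 libraries, 915, 720.2 and 860.5 in the PNKP1i libraries and 914, 909 and 942 in the DMSO libraries. In all 3 genes the TH10785 libraries also lay wholly below the DMSO libraries. The PNKP1i libraries lay below DMSO in NPFFR1 and overlapped it in NTRK3 and STRA6.

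The other receptors and surface proteins of this class were NGFR, the low-affinity neurotrophin receptor (20.3% of DMSO with both, 68.3% with TH10785 and 104% with PNKP1i), and the dopamine receptor DRD1 (18.7%, 58.2% and 74.99%). They also included EPHB3, a receptor for B-type ephrins (23.4%, 64.6% and 90.6%), GPER1, a G protein-coupled oestrogen receptor (17.4%, 97.6% and 77.0%), and GP6, the collagen receptor of platelets (22.00%, 60.5% and 83.9%). LDLRAD4, a membrane inhibitor of TGF-beta signalling, was at 24.5% with both, 64.1% with TH10785 and 72.8% with PNKP1i. NGFR and DRD1 were uneven with PNKP1i: NGFR had 528 normalized counts in replicate 2, against 278 and 316 in the others, and DRD1 had 439.9 in replicate 2, against 149 and 198. Inside the cell, SOCS1, which inhibits cytokine signalling through JAK kinases, was at 20.8%, 60.2% and 87.8%, and the adaptor GRB7 at 16.5%, 58.7% and 74.9%. CABP7, a calcium-binding protein, was at 19.3%, 60.8% and 77.4%, PPP1R1B, a dopamine-regulated phosphatase inhibitor, at 23.9%, 80.5% and 87.2%, and the kinase SBK2 at 23.4%, 87.5% and 95.9%. Over the 14 genes of the class the medians were 19.8% with both, 62.7% with TH10785 and 85.6% with PNKP1i.

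Secreted factors were the class with the lowest median with both, apart from the small groups. IGFBP5, which binds insulin-like growth factors and is made by bone cells, had 348, 1138 and 1546 normalized counts in the combination libraries, 5223, 4677 and 4129.9 in the TH10785 libraries, 4501, 9215 and 4818 in the PNKP1i libraries and 6674, 7132 and 8210.1 in the DMSO libraries. Its PNKP1i replicate 2 was above every DMSO library, while the other two PNKP1i libraries were below them. NPPB, the natriuretic peptide precursor, had 7.99, 32.6 and 17.4 in the combination libraries, 104, 136 and 175 in the TH10785 libraries, 76.4, 54.9 and 90.5 in the PNKP1i libraries and 120.3, 119 and 113 in the DMSO libraries. LGI3, a secreted leucine-rich repeat protein, had 3.55, 24.7 and 23.1 in the combination libraries, 89.1, 98.0 and 129.9 in the TH10785 libraries, 123, 105 and 103 in the PNKP1i libraries and 128, 143 and 140.4 in the DMSO libraries. Both genes were lowest in combination replicate 1. The single compounds split NPPB: its PNKP1i libraries were wholly below DMSO, and its TH10785 libraries overlapped DMSO.

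The ligand WNT11 was at 20.2% with both, 90.2% with TH10785 and 58.1% with PNKP1i. The vasoconstrictor peptide gene EDN2 was at 17.0%, 103% and 84.0%, the netrin NTN3 at 18.8%, 57.9% and 95.7%, and IGFBP4, a further binding protein of insulin-like growth factors, at 24.1%, 86.1% and 78.9%. EDN2 was uneven, with 17.8 normalized counts in combination replicate 1, against 197 and 164 in replicates 2 and 3. The 7 secreted factors had medians of 17.0% with both, 86.1% with TH10785 and 80.6% with PNKP1i.

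Among adhesion, matrix and cytoskeleton genes, TGFBI, a matrix protein induced by TGF-beta, had 178, 262 and 215 normalized counts in the combination libraries, 969.7, 931 and 1078 in the TH10785 libraries, 608, 823 and 754 in the PNKP1i libraries and 1272, 1071 and 847 in the DMSO libraries. PDLIM1, an adaptor of actin fibres, had 33.7, 219 and 186 in the combination libraries, 598, 769.5 and 910.2 in the TH10785 libraries, 797, 425 and 716 in the PNKP1i libraries and 775, 925 and 1031 in the DMSO libraries. JUP, the junction protein plakoglobin, had 162, 352 and 439.7 in the combination libraries, 1047, 997 and 1452 in the TH10785 libraries, 998, 1125 and 1117 in the PNKP1i libraries and 1124, 1398 and 1424 in the DMSO libraries. TGFBI was the steadiest of them with both compounds, and its PNKP1i libraries lay wholly below DMSO while its TH10785 libraries overlapped it. PDLIM1 and JUP overlapped DMSO with either compound alone. TUBB4A, a beta-tubulin, had 111, 190.2 and 229 in the combination libraries, 525, 472 and 601 in the TH10785 libraries, 564, 421 and 520.3 in the PNKP1i libraries and 583, 751 and 794 in the DMSO libraries.

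LRRC15, a membrane protein of mesenchymal cells in tumour stroma, was at 19.4% with both, 97.6% with TH10785 and 63.0% with PNKP1i. CD248, a surface glycoprotein of stromal cells, was at 19.3%, 71.5% and 54.2%. CD248 varied most within the combination, with 0.89 normalized counts in replicate 1, 31.7 in replicate 2 and 11.6 in replicate 3. OLFML2A and PODNL1, proteins of the extracellular matrix, were at 18.1% and 24.8% with both, 71.4% and 65.1% with TH10785, and 91.1% and 88.1% with PNKP1i. CRB2, a polarity protein of epithelia, was at 20.8%, 113% and 81.9%. The 9 genes had medians of 20.5% with both, 83.4% with TH10785 and 71.0% with PNKP1i.

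Transcription regulators included some of the genes with the highest counts. HR, a nuclear corepressor needed for hair growth, had 368, 978 and 1101 normalized counts in the combination libraries, 2819, 2889 and 3744 in the TH10785 libraries, 3963, 5275 and 4155 in the PNKP1i libraries and 5090.2, 5914 and 6056 in the DMSO libraries. MN1, a transcriptional coregulator, had 396, 835 and 982 in the combination libraries, 2272, 2149 and 2095 in the TH10785 libraries, 2561, 2604 and 2309 in the PNKP1i libraries and 3149, 3159.8 and 3643 in the DMSO libraries. DBP, a clock-controlled factor of the PAR bZIP family, had 220.2, 435 and 422 in the combination libraries, 1300.03, 1232 and 1565 in the TH10785 libraries, 1560.3, 1497 and 1551 in the PNKP1i libraries and 1513, 1859 and 1767 in the DMSO libraries. The TH10785 libraries of HR and MN1 lay wholly below DMSO, as did the PNKP1i libraries of MN1, whereas DBP overlapped DMSO with either compound. ZNF467, a zinc finger protein, had 85.2, 271 and 237 in the combination libraries, 566, 634 and 802 in the TH10785 libraries, 640.4, 623 and 604 in the PNKP1i libraries and 678, 825 and 984 in the DMSO libraries.

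SOX18, a factor of vessel and lymphatic development, was at 20.8% with both, 58.5% with TH10785 and 69.0% with PNKP1i. NFATC2, which calcineurin activates, was at 22.4%, 61.1% and 64.9%, and the T-box gene TBX10 at 19.2%, 72.0% and 74.5%. The 7 regulators had medians of 21.0% with both, 65.5% with TH10785 and 75.1% with PNKP1i.

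The channels and transporters had the lowest class median with TH10785 and one of the highest with PNKP1i. PRIMA1, which anchors acetylcholinesterase in membranes, had 8.88, 9.68 and 9.09 normalized counts in the combination libraries, 20.3, 26.9 and 44.0 in the TH10785 libraries, 50.2, 43.9 and 42.1 in the PNKP1i libraries and 70.6, 53.4 and 63.3 in the DMSO libraries. SCNN1A, the alpha subunit of the epithelial sodium channel, had 4.44, 11.4 and 19.8 in the combination libraries, 41.7, 39.4 and 22.00 in the TH10785 libraries, 74.3, 77.8 and 84.1 in the PNKP1i libraries and 78.3, 60.2 and 48.4 in the DMSO libraries. TTYH1, a membrane protein of the tweety family, had 87.0, 243 and 279 in the combination libraries, 497, 599 and 814 in the TH10785 libraries, 665, 1141 and 747 in the PNKP1i libraries and 734, 829 and 942 in the DMSO libraries. In PRIMA1 the 3 combination libraries were nearly equal, so this gene did not rest on replicate 1. SCNN1A was below DMSO in all 3 TH10785 libraries, and its PNKP1i libraries overlapped DMSO.

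SLC2A12, a glucose transporter, was at 22.1% with both, 55.8% with TH10785 and 71.1% with PNKP1i, and FXYD6, a regulator of the sodium pump, at 24.7%, 81.3% and 95.3%. The 5 genes had medians of 22.1% with both, 55.8% with TH10785 and 95.3% with PNKP1i.

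The remaining 8 genes held the lowest ratio of the set. GALNT15, an enzyme that starts O-linked sugar chains in the Golgi, had 3.55, 4.40 and 10.7 normalized counts in the combination libraries, 57.5, 45.2 and 46.1 in the TH10785 libraries, 45.0, 57.9 and 41.1 in the PNKP1i libraries and 89.4, 78.4 and 68.2 in the DMSO libraries. ALPP, the placental alkaline phosphatase, had 21.3, 104 and 86.8 in the combination libraries, 516, 639 and 836 in the TH10785 libraries, 437, 250.4 and 322 in the PNKP1i libraries and 371, 420.4 and 493 in the DMSO libraries. GALNT15 was below DMSO with either compound alone. ALPP was the only gene of the 50 whose TH10785 libraries lay wholly above DMSO. ALPP has near-identical paralogs, so its counts are uncertain where reads could be shared.

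The noncoding LUARIS, annotated as antisense, had 7.10, 83.6 and 60.3 in the combination libraries, 212, 179 and 216 in the TH10785 libraries, 201, 128 and 200.3 in the PNKP1i libraries and 237, 186 and 186 in the DMSO libraries. TMEM255A, a membrane protein, had 30.2, 118 and 95.1 in the combination libraries, 239, 281 and 164 in the TH10785 libraries, 234, 282 and 222 in the PNKP1i libraries and 331, 315 and 327 in the DMSO libraries. Combination replicate 1 held far less LUARIS than the other two combination libraries, and TMEM255A was more even. FBXO2, a ubiquitin ligase subunit that recognises glycoproteins, was at 20.6% with both, 105% with TH10785 and 87.7% with PNKP1i. PEG13, a noncoding RNA, was at 18.5%, 97.9% and 96.1%, HRCT1 at 20.5%, 70.0% and 108%, and PLEKHB1 at 19.98%, 60.8% and 99.7%.

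Just outside the threshold, CRISPLD2, a secreted protein, had 14.2, 40.5 and 39.7 in the combination libraries, 100.3, 80.7 and 90.1 in the TH10785 libraries, 103, 90.8 and 112 in the PNKP1i libraries and 106, 129.5 and 141 in the DMSO libraries. RCAN2, an inhibitor of calcineurin, had 15.1, 33.5 and 33.1 in the combination libraries, 76.7, 78.8 and 74.4 in the TH10785 libraries, 71.2, 123 and 79.6 in the PNKP1i libraries and 104, 112 and 106 in the DMSO libraries. KLRK1-AS1, an antisense RNA, had 29.3, 67.8 and 47.9 in the combination libraries, 91.3, 70.1 and 67.0 in the TH10785 libraries, 119, 332 and 212 in the PNKP1i libraries and 242, 166 and 171 in the DMSO libraries. In all 3, combination replicate 1 was the lowest library, as in the 50.

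TH10785 alone left the 50 genes far nearer to DMSO than the combination did. They stood at 48.7% (PRIMA1) to 155% (ALPP) of their DMSO means, with a median of 70.9%. On the log2 scale the median difference from DMSO was -0.50, against -0.02 over all tested genes, and 45 of 50 values were negative. In edgeR's quasi-likelihood test with Benjamini-Hochberg adjustment over 17290 genes, 0 of the 50 were called lower (0.0463% of all tested genes were) and 0 were called higher (0.515%). At an unadjusted p under 0.05, 21 were lower and 0 higher (1124 and 1321 over all tested genes). DESeq2 called 2 lower (93 over all tested genes). The TH10785 libraries lay wholly below the DMSO libraries in 26 of 50 genes, where 10.6% of genes with that DMSO level did, and wholly above in 1 (10.4%). The DMSO libraries also took part in the choice of the genes, so these differences are not independent of the rule.

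The smallest adjusted p was that of PRIMA1 (log2 fold change -1.04, SE 0.27, edgeR adjusted p = 0.0966), followed by SOX18 (log2 fold change -0.78, SE 0.21, edgeR adjusted p = 0.115) and HR (log2 fold change -0.86, SE 0.26, edgeR adjusted p = 0.155). None of the 3 passed 0.05. ALPP was the highest (log2 fold change 0.62). The 95% intervals say how large a cut could have been: 21 of 50 lay wholly below 0, 31 reached a halving (log2 of -1), and 0 reached a cut to 25% (log2 of -2). The lowest bound was -1.79, for DRD1. Over the 3 TH10785 libraries, the median gene stood at 69.6%, 66.1% and 79.4% of its DMSO mean in replicates 1 to 3. Replicate 3, which stands apart from its partners across the transcriptome, was the highest of the 3 in 37 of the 50 genes. The share over all genes was not counted. Genes over 60% GC stood at 0.22 from the DMSO mean on the log2 scale in replicate 3, against -0.14 and -0.10 in replicates 1 and 2. The part of this in the 37 was not tested. Without replicate 3 the median log2 difference was -0.55. The count of 0 depended on the fit. Without the filter on low counts 9 of the 50 were called lower (CABP7, GP6, LDLRAD4, MN1, PODNL1, SLC2A12, SOCS1, SOX18 and STRA6). Without combination replicate 1 it was 6, and with GC and length offsets 3 (GP6, PRIMA1 and SOX18). Calls over all genes rose too. These fits called 127 of 34799, 35 of 17290 and 79 of 17290 genes lower, against 8 of 17290 in the main fit.

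**Figure D2:**
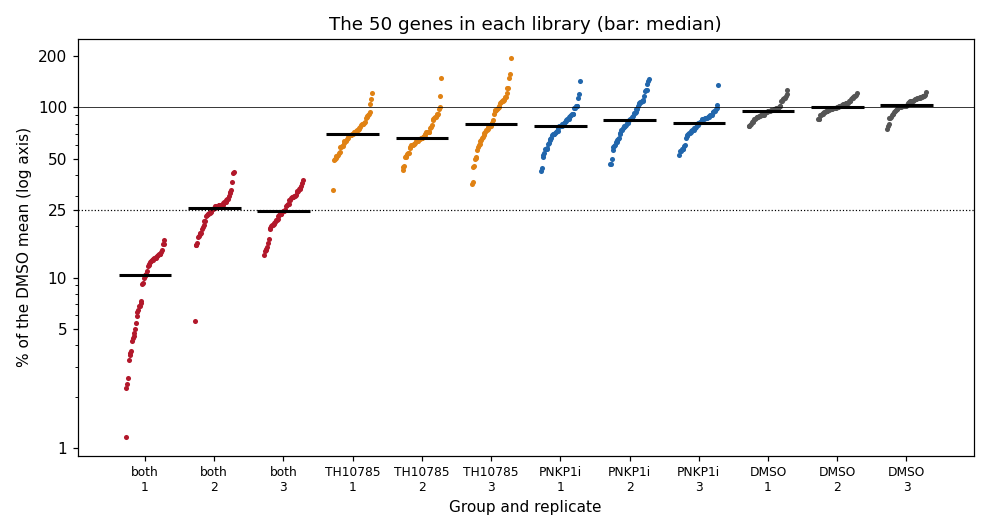
Each of the 50 genes as a percentage of its DMSO mean (log axis), by library, with genes sorted within a library and a black bar at the median. The medians are 10.4%, 25.5% and 24.6% in the combination libraries, 69.6%, 66.1% and 79.4% with TH10785, and 77.2%, 84.4% and 80.9% with PNKP1i, so the 3 combination libraries lie well below the other 9 and combination replicate 1 lies lowest.

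PNKP1i alone gave smaller differences. The 50 genes stood at 54.2% (CD248) to 126% (SCNN1A) of their DMSO means, with a median of 79.7%. The median log2 difference was -0.33, against -0.02 over all tested genes, with 46 of 50 values negative. The same edgeR test called 0 of 50 lower (0.0231% of all tested genes) and 0 higher (0.174%). At an unadjusted p under 0.05, 8 were lower and 0 higher (938 and 1019 over all tested genes). DESeq2 called 0 lower (18 over all tested genes). The PNKP1i libraries lay wholly below DMSO in 19 of 50 genes, where 17.3% of genes with that DMSO level did, and wholly above in 0 (13.9%). This comparison shares its DMSO libraries with the rule and with the TH10785 comparison.

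LRRC15 had the smallest adjusted p with PNKP1i (log2 fold change -0.67, SE 0.20, edgeR adjusted p = 0.266), followed by TGFBI (log2 fold change -0.55, SE 0.17, edgeR adjusted p = 0.27) and WNT11 (log2 fold change -0.78, SE 0.25, edgeR adjusted p = 0.311). None of these passed 0.05. The largest fitted difference was that of CD248 (log2 fold change -0.88), and SCNN1A was the highest (log2 fold change 0.34). Of the 95% intervals, 8 of 50 lay wholly below 0, 17 reached a halving and 0 reached a cut to 25%, with the lowest bound at -1.84 for CD248. The PNKP1i result depended on how the spread was estimated: a fit of only the PNKP1i and DMSO libraries called 10 of the 50 lower. These were CD248, LRRC15, MN1, NFATC2, NPPB, SOX18, TGFBI, TUBB4A, WNT11 and ZNF467. That fit called 567 of all 17290 tested genes lower, against 4 in the main fit, so its calls rose far beyond the 50.

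**Figure D3:**
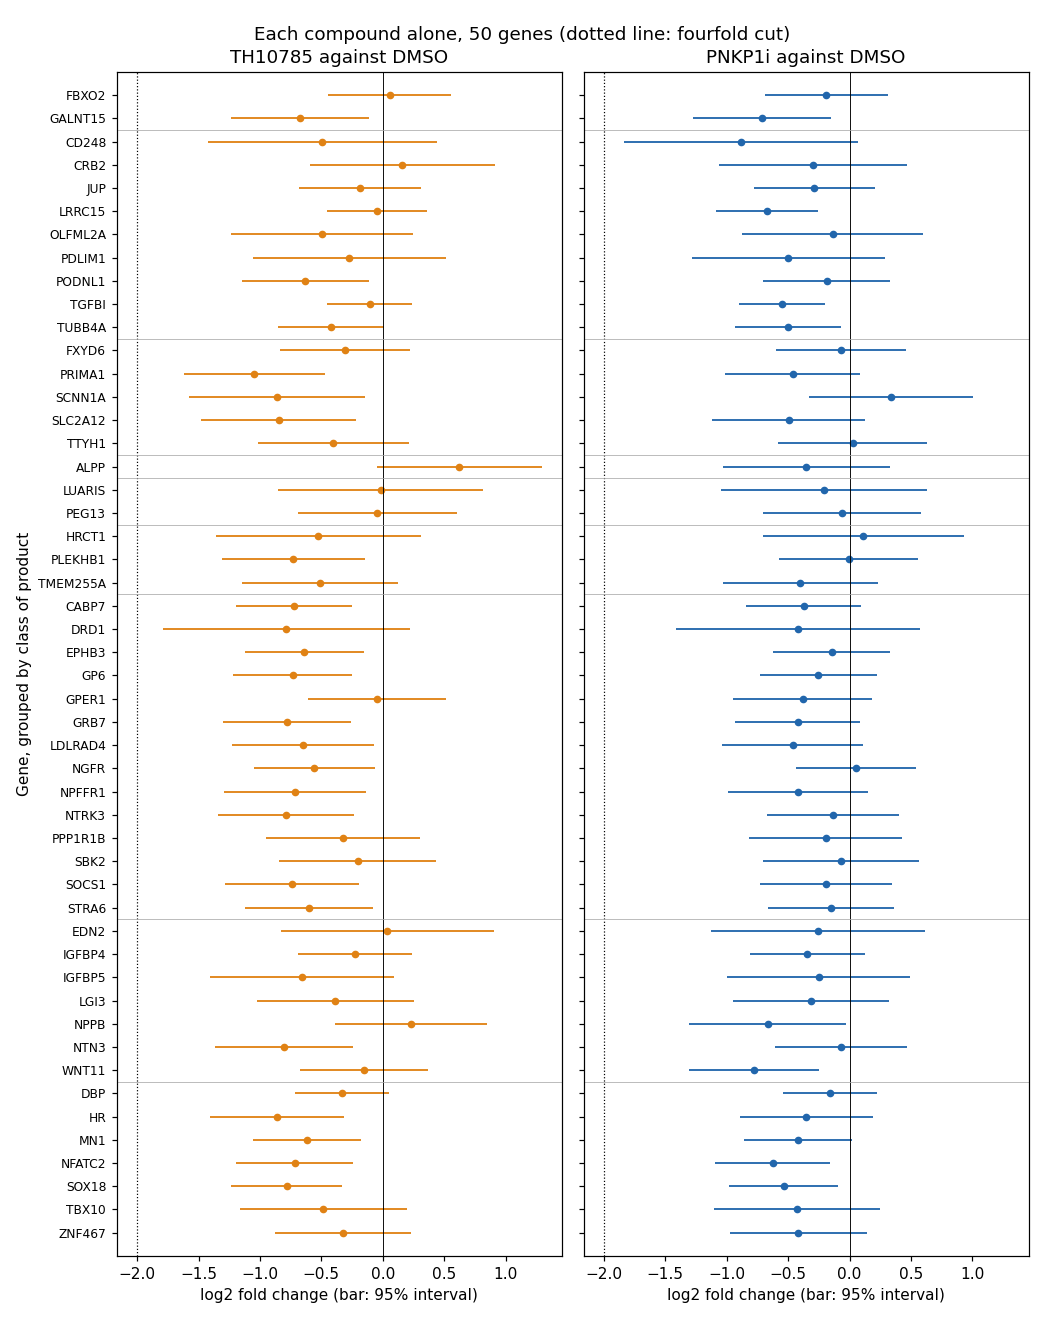
Log2 fold change against DMSO with its 95% interval for each of the 50 genes, with TH10785 alone (left, orange) and PNKP1i alone (right, blue), grouped by class of product. No interval crosses the dotted line at -2, a cut to 25%, and the points run from -1.04 (PRIMA1) to 0.62 (ALPP) with TH10785 and from -0.88 (CD248) to 0.34 (SCNN1A) with PNKP1i.

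A cut as deep as that of the combination was not seen with either compound in any gene at this level. Of 11478 genes, 0 had a mean with TH10785 at or under 0.25 of DMSO and 0 had one with PNKP1i, against 63 with both. At or under 0.5 of DMSO there were 574 genes with both, 10 with TH10785 (PRIMA1 among them) and 2 with PNKP1i (neither of them among the 50). The product of the 2 single levels, the level that would follow if each compound cut its own share, ran from 35.4% (PRIMA1) to 122% (ALPP) of DMSO, with a median of 59.6%. That product was above the combination level in 50 of 50 genes. The rule favours such a count, its share over all genes was not taken, and nothing is read from it. The fitted interaction, the part of the combination's log2 change beyond the sum of both single changes, had a median of -1.56 on the log2 scale, between -2.84 (ALPP) and -0.79 (NFATC2). These values rest on the libraries that chose the genes and carry no test.

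TH10785 was also set against PNKP1i directly, and neither group holds a library of the rule. The spread behind the p-values was still estimated over all 12 libraries, those of the rule included. The median log2 difference was -0.18, with 32 of 50 values negative, against 0.00 over all tested genes. Without PNKP1i replicate 2 the median was -0.07. EdgeR called 0 of the 50 lower (0.278% of all tested genes) and 0 higher (0.625%). At an unadjusted p under 0.05, 8 were lower and 5 higher with TH10785 (750 and 747 over all tested genes). DESeq2 called 1 lower (80 over all tested genes). The TH10785 libraries lay wholly below the PNKP1i libraries in 10 genes (7.21% of genes with that DMSO level) and wholly above in 5 (6.94%). SCNN1A was at the low end (log2 fold change -1.20, SE 0.33, edgeR adjusted p = 0.15), with 41.7, 39.4 and 22.0 normalized counts with TH10785 and 74.3, 77.8 and 84.1 with PNKP1i. ALPP was at the high end (log2 fold change 0.97, SE 0.32, edgeR adjusted p = 0.279), with NPPB after it (log2 fold change 0.89, SE 0.30, edgeR adjusted p = 0.294). SCNN1A and ALPP passed 0.05 when combination replicate 1 was left out of the fit, and SCNN1A also in DESeq2.

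The class medians differed in which compound they were lower with, as a description. Channels and transporters (median log2 difference from DMSO -0.85 with TH10785 and -0.07 with PNKP1i) and receptors and signalling proteins (-0.68 and -0.23) were lower with TH10785. Adhesion, matrix and cytoskeleton genes (-0.27 and -0.50) and secreted factors (-0.23 and -0.32) had lower medians with PNKP1i, by little in the secreted factors. These classes were not uniform. The secreted NTN3, IGFBP5 and LGI3 and the matrix genes OLFML2A and PODNL1 had lower means with TH10785 than with PNKP1i. Among the receptors and signalling proteins, GPER1 had the lower mean with PNKP1i. Transcription regulators were at -0.62 with TH10785 and -0.42 with PNKP1i. The difference between classes was not tested.

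Genes that share a symbol prefix with a member were also counted, without the member. The contrast is the combination against DMSO, in which 19.7% of all tested genes were called lower and 21.3% higher by edgeR. It uses the libraries of the rule, so the counts are no independent support for the 50. The families given by name were chosen after their values were seen. Among WNT ligands other than WNT11, 9 of 12 tested fell and 1 rose, with WNT7B at -1.87 and WNT2B at 1.52 (log2). With GC and length offsets 4 of the 12 WNT genes were lower, and without combination replicate 1 it was 7. Among SOX factors other than SOX18, 8 of 12 fell, among them SOX2 (-1.74 on the log2 scale), and SOX8 rose (0.73), with 6 lower after the offsets. IGFBP6 (-0.66) and IGFBP7 (-1.12) fell beside IGFBP4 and IGFBP5. The tweety genes TTYH2 (-0.81) and TTYH3 (-1.10) fell beside TTYH1, and 4 of 6 other beta-tubulins fell, among them TUBB3 (-1.22). With either compound alone, none of the WNT, SOX, IGFBP, TTYH and beta-tubulin genes was called.

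Close relatives also went the other way. EPHB2 (-1.07), EPHB4 (-0.94) and EPHB6 (-0.57) fell beside EPHB3, but EPHB1 rose (1.83), and EPHB6 did not pass after the offsets. EDN1 rose (0.71) where EDN2 was low. Among cytokine signalling suppressors, SOCS3 (-1.25) and SOCS7 (-0.39) fell, and SOCS2 (1.16) and SOCS4 (1.06) rose. SOCS7 did not pass after the offsets, nor SOCS2 without combination replicate 1. SBK1 (-1.84), a relative of SBK2, also fell with TH10785 alone (-0.91).

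In the biggest symbol groups the calls with both compounds ran in both directions. Of 255 solute carriers (SLC) other than SLC2A12, 43 fell and 65 rose, against 34 and 82 after the offsets. Of 187 TMEM genes other than TMEM255A, 40 fell and 45 rose, against 26 and 39 after the offsets. Of 449 zinc finger (ZNF) genes other than ZNF467, 41 fell and 170 rose, against 24 and 113 after the offsets. Of 66 genes with the prefix PPP other than PPP1R1B, 17 fell and 11 rose. Of 41 LRRC genes other than LRRC15, 8 fell and 5 rose, against 4 and 5 after the offsets, and of 29 F-box (FBXO) genes other than FBXO2, 3 fell and 8 rose, against 4 and 6. The relatives of GRB7 (median 0.20 on the log2 scale) and of DRD1 (median 0.62) did not pass the test.

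In wider lists of pathway genes, 5 of 16 lists held a gene of the set. In the list of clock outputs and PAR bZIP factors, 7 of 12 genes other than DBP fell with both compounds and 3 rose, with a median of -0.82. PER1 (-1.33), PER2 (-1.18) and PER3 (-1.10), repressors of the clock, and TEF (-1.38), a PAR bZIP factor like DBP, fell, and NFIL3 (0.97), which represses at the same DNA sites, rose. BHLHE41, a clock repressor, was lower with TH10785 alone (log2 -1.17, edgeR adjusted p = 0.0357). In the list of BMP and TGF-beta responses, 8 of 16 genes other than TGFBI fell, among them SMAD6 (-1.57), an inhibitor of BMP signalling, and the ligand TGFB2 (-1.35), and SKIL rose (0.64), which was -0.02 after the offsets. Ephrins and their receptors, without EPHB3, had 8 of 14 lower and 1 higher, against 5 and 2 after the offsets. SOX and FOX factors without SOX18 had 9 of 20 lower and 2 higher, and epithelial junction genes without JUP had 7 of 17 lower and 3 higher. The other 11 lists had medians from -0.77 (Hedgehog pathway, 9 of 11 lower and 1 higher) to 0.31 (ERK feedback and targets, 3 of 17 lower and 5 higher). After the offsets the Hedgehog list had 7 lower and 0 higher, with a median of -0.50. The ERK list then had 2 lower and 8 higher, with a median of 0.51. Over the 238 list genes tested, TH10785 alone lowered 2 (BHLHE41 and SEMA3E) and raised 1, and PNKP1i alone changed 0.

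Marker sums moved with the combination. Of 8 mesenchymal markers, 7 had a lower mean with both compounds than with DMSO, and TWIST1 was at 0 throughout. Among the 7, COL1A2 and SP7 were near 0 in every group, and CDH2 was little lower (1163 with both and 1289 with DMSO). The difference lay mostly in SPARC (17974 and 34330), COL1A1 (12189 and 29799) and VIM (12812 and 19566). The summed normalized count of the 8 markers was 39155 to 48085 in the combination libraries, 72436 to 86425 with TH10785, 79947 to 82397 with PNKP1i and 76183 to 91097 with DMSO. The part of this in the low level of LRRC15, CD248 and TGFBI was not tested. The 3 endothelial markers summed to 31.1 to 54.6 with both, 85.7 to 149 with TH10785, 77.4 to 102 with PNKP1i and 81.1 to 89.8 with DMSO, and their part in the low level of SOX18 was not tested either. The difference lay in VWF, with a mean of 16.4 with both and 57.6 with DMSO. PECAM1 (18.4 with both and 14.97 with DMSO) and CDH5 (11.7 and 12.7) did not share it. The 5 epithelial markers summed to 21953 to 26894 with both, 44230 to 69423 with TH10785, 36401 to 45824 with PNKP1i and 37222 to 43620 with DMSO. Here the difference lay mostly in the keratin KRT8, with a mean of 13931 with both and 29755 with DMSO, while EPCAM (66.7 with both and 63.0 with DMSO) and CDH1 (46.4 and 36.8) were not lower. The part of this in the low level of JUP and CRB2 was not tested.

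The 50 genes were rich in G and C. The rule did not name GC content, but its ratio came from libraries that differed with it, as given below. The GC content is therefore not independent of the rule. The longest annotated transcript had a median GC content of 59.5% over the 50, against 49.1% over 11477 tested genes with that DMSO level. It was 56.7% over the 3413 genes called lower with both. GC content was over 60% in 23 of 50 (46.0%), against 15.4% of genes at that level, and at or under 40% in 0, against 14.2%. The median length of that transcript was 3295 bases over the 50 and 3746 at that level.

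The libraries themselves differed with GC content, which touches every value of the set. In the 3 combination libraries, genes over 60% GC lay 0.37, 0.34 and 0.35 below the DMSO mean on the log2 scale. Genes at or under 40% GC lay 0.65, 0.46 and 0.80 above it. TH10785 replicate 3 ran the other way, at 0.22 over 60% GC and -0.62 at or under 40%. After per-library offsets for GC content and transcript length, the 50 genes stood at 8.90% (GALNT15) to 35.4% (PODNL1) of DMSO with both, with a median of 24.8%, and 26 of 50 stayed at or under 25%. The rule applied to the offset values took 35 genes, 26 of them among the 50.

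**Figure D4:**
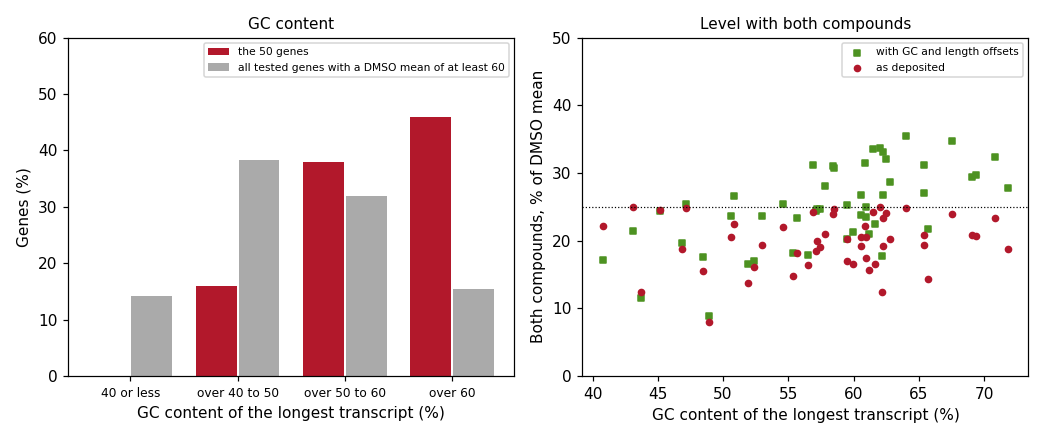
Left, the percentage of genes in 4 ranges of GC content of the longest transcript, for the 50 genes (red) and for all tested genes with a DMSO mean of at least 60 (grey): 46.0% of the 50 lie over 60% GC, against 15.4%. Right, the level of each of the 50 genes with both compounds as a percentage of DMSO against its GC content, with GC and length offsets (green squares) and as deposited (red circles), where the dotted line marks 25%. The green points lie above the red at high GC content, and 26 of the 50 stay at or under the line.

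On the genome (GRCh38, GENCODE release 29), the 50 genes were spread over the chromosomes, with 6 on chromosome 19 and 5 each on chromosomes 11 and 17. HR and LGI3 lay 13.4 kb apart on chromosome 8, PPP1R1B and GRB7 101 kb apart on chromosome 17, and FBXO2 and NPPB 202 kb apart on chromosome 1. Of the 100 nearest tested neighbours on either side, 35 (35.0%) were called lower with both compounds, where 19.7% of all tested genes were. REEP4, which lies between HR and LGI3, is counted for each of them. This contrast uses the libraries of the rule, and the neighbours were not set against genes of like GC content. Whether position plays a part was not tested. Whether counting used strand is not known here, and 19 of the 50 share exonic bases with a gene on the opposite strand, so reads of both cannot be told apart there. The overlap was widest in SLC2A12, where 1736 of 4468 exonic bases (38.9%) lie over TBPL1, and it was 12.2% in CABP7 (ZMAT5), 10.1% in DBP (SPHK2) and 7.18% in SCNN1A (LTBR). FXYD6 shares 390 bases with the readthrough gene FXYD6-FXYD2 on its own strand.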

How the data were processed

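RNA of U2OS cells was measured in 12 libraries, grouped by the sample labels. Per the submitters' processing notes, HISAT2 2.0.5, HTSeq 0.6.1 and DESeq2 1.30.1 were used with GRCh38 (hg38). The annotation counted and the use of strand are not given in the sources used here. The authors deposited raw read counts per gene and a second table of normalized signal, whose values equal the counts over 1 scale factor for each library. No column of either table was left unused.

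Members were found in the normalized table of 35754 genes. Gene tests on the raw counts used edgeR 4.0.16 (R 4.3.3): filterByExpr kept 17290 genes, TMM scaled the libraries, and 1 mean per group was fitted over 12 libraries by robust quasi-likelihood. P-values (two-sided) were adjusted by Benjamini-Hochberg over all genes tested, with calls at 0.05. TH10785 and PNKP1i were each compared with DMSO and with each other. The tests were also run on simulated counts with known changes put in. Those counts held no shift with GC content and the same spread in every group, so they do not show how the tests behave where libraries differ in these. DESeq2 1.42.0, RLE scaling, no filter, fits of only the groups compared, the replicate block, GC and length offsets and leaving out each library were alternatives. GENCODE release 29 gave positions, GC content and overlaps, and matched the Ensembl identifiers of the files. RefSeq gave the promoters.

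Same-numbered replicates did not deviate together (correlations from -0.25 to 0.13 over 18 pairs), so the numbers were not taken as pairs. Values in every library were given for the 10 genes with the lowest ratio, the 10 with the highest DMSO mean, and the 3 on each side of the ratio threshold, with ALPP, SCNN1A and other single values chosen after their values were seen. From the pathway lists, non-members named were likewise chosen after their values were seen. The members, classes and lists were chosen with earlier results of these data known.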

Additional observations from a re-analysis of the deposited data

How the results depend on the processing

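Of the 50 genes, the main fit called 0 lower with TH10785 against DMSO. This count was 9 with all genes kept, 3 with offsets for GC content and length, 1 in a fit of only those groups (HR) and 2 in DESeq2. It was 0 to 6 when libraries were left out in turn (6 without combination replicate 1 and 1 without TH10785 replicate 3). Over all genes, lower calls were 8 in the main fit, 127 with all genes kept, 79 with the offsets, 9 with only those groups and 93 in DESeq2. They were 35 without combination replicate 1 and 28 without TH10785 replicate 3. For PNKP1i against DMSO the count was 0, and 10 in a fit of only those groups. That fit called 567 of all 17290 tested genes lower, against 4 in the main fit. For TH10785 against PNKP1i, 0 were lower and 0 higher. There were 1 lower and 1 higher with all genes kept, 1 lower in DESeq2, and 0 to 1 in each direction when libraries were left out. Over all genes, 98 were lower and 201 higher with all genes kept, and 80 were lower in DESeq2. The cause of these shifts was not tested. With the replicate number as a block, 0 were called in each comparison, and same-numbered samples did not deviate together. The rule took 50 genes, and 23 to 79 when 1 library was left out (23 without combination replicate 1, 79 without combination replicate 2 and 75 without combination replicate 3), 24 at a ratio of 0.2, 99 at 0.3, 45 on TMM-scaled counts and 35 with GC and length offsets. Among pathway list genes called with both compounds, SKIL (-0.02), LOX (-0.02), KLF16 (0.02), PLXNA1 (0.16) and PLXNB1 (0.14) had the other sign after GC and length offsets, with the log2 values given, and no longer passed. Depth limits the 11 genes with under 10 raw counts in a combination library, and 3 libraries a group limit the rest.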

Other observations

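Below the DMSO level of 60, a further 48 genes with a symbol and a DMSO mean from 20 to 60 stood at or under 25% of DMSO with both compounds. PRND, which encodes a prion-like protein, had 0 in the 3 combination libraries and 25.4, 12.5 and 32.6 normalized counts with DMSO. The TGF-beta family inhibitor LEFTY1 was at 2.60% of DMSO, and MYOCD, a coactivator of smooth muscle genes, at 3.91%. These low counts were chosen after their values were seen and carry no test.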
